A study of Homo sapiens with 6 samples.

Results

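Interferon-stimulated genes outside the cluster of IFIT genes were followed in LNCaP prostate cancer cells with reduced MBD2. The list names 42 such genes, and a gene counted as measured where an array feature is annotated to that gene symbol alone. This gave 40 measured genes of 16704 in all, with 1 feature each. GBP1 and STAT2 had no such feature and were not analysed here. LNCaP is an established, androgen-responsive line derived from a lymph node metastasis of prostate cancer. All 6 clones came from LNCaP cells stably transfected with the siLentGene-2 vector and selected by neomycin resistance. In 3 clones the vector encoded a scrambled hairpin RNA (control), and in 3 it encoded a hairpin RNA against MBD2 (knockdown). Each clone gave 1 array of cytoplasmic RNA, so a group is a set of 3 clonal lines, and differences between clones of 1 group enter every comparison. Knockdown clones 2 and 3 were the most alike pair, with an SD over genes of 0.185 for their log2 difference against 0.223 to 0.350 in the other pairs, and each differed from knockdown clone 1 by 0.316 and 0.350. MBD2 binds methylated CpG dinucleotides and recruits a repressor complex to them.

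Interferons are secreted by cells that sense foreign nucleic acid. They bind receptors whose kinases, JAK1 and TYK2, pass the signal to a complex with IRF9 that binds the interferon-stimulated response element (ISRE) in promoters. The genes switched on in this way code for RNA sensors, enzymes that degrade or block viral RNA, membrane proteins that hold back virus particles, and feedback regulators. LNCaP cells are known to lack a working JAK1 and to answer interferon poorly, so levels here are those of unstimulated cells in a line with an impaired pathway.

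MBD2 was at 41.2% of the control level in the knockdown clones (95% interval 32.6% to 52.0%), with all 3 knockdown clones below all 3 controls. The exact two-sided permutation p was 0.1, the smallest that 3 clones against 3 allow, and the adjusted p of limma's moderated test was 0.111. Of 9 measured luminal prostate markers, 8 lay above the upper quartile of genes in both groups, KLK3 and KRT8 among the 9. Of 11 leukocyte markers 9 were dim, meaning a mean under the lower quartile of all genes in both groups, and none of the 11 had an unadjusted p under 0.05 in limma's test. Their summed log2 values were 46.2 to 46.8 in the controls and 46.5 to 47.8 in the knockdown clones. Of 7 fibroblast markers 3 were dim (sums 32.4 to 32.8 in the controls and 32.6 to 33.5 in the knockdown clones), and of 3 plasmacytoid dendritic cell markers 2 were dim (13.1 to 14.2 and 13.4 to 13.5). Their part in the results was not tested. Values on the array of knockdown clone 1 were less spread, with a lower quartile of 4.81 against 4.68 to 4.72 on the other 5 arrays. Whether a lower value in bulk RNA comes from fewer expressing cells or from less RNA per cell cannot be told apart.

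The interferon-stimulated genes were mixed in direction, with SAMD9, GBP2 and OAS3 lowest and IFI44L, LGALS3BP, BST2 and IFITM1 highest relative to control. None of the 40 had an adjusted p under 0.05, as none of all 16704 genes did (0.0%). At an unadjusted p under 0.05 there were 9, 6 lower (SAMD9, OAS3, DDX60, CXCL10, TRIM21 and OASL) and 3 higher (IFI44L, BST2 and IFITM1) in the knockdown clones. That is 22.5% of these genes against 9.39% of all genes tested, with 5.45% of all genes lower and 3.93% higher. Knockdown and control values were fully separated in 7 genes (17.5%), near the 15.4% of all genes, 5 of them lower (12.5%, against 8.87%) and 2 higher (5.0%, against 6.57%). Of the 40, 24 had a lower mean in the knockdown clones (60.0%, against 51.3% of all genes) and 16 a higher one (against 48.7%), and the median log2 fold change was -0.092 against -0.0043 over all genes. Differences of at least 0.3 were found in 9 lower genes (22.5%, against 4.69%) and 4 higher genes (10.0%, against 3.67%). The distance from the share of all genes depended on single clones. Without control clone 3, 5 of the 40 were at an unadjusted p under 0.05, 3 higher and 2 lower, against 6.97% of all genes. Without knockdown clone 1 there were 8 of the 40, against 16% of all genes, and with array weights 11 of the 40, against 19.9%. Without control clone 1 the count stayed at 9 of the 40, against 8.05%, and without control clone 2 it was 6 of the 40, against 6.78%. In each of these fits the share of the 40 was above that of all genes, by differing amounts. Without control clone 3 the median was -0.0095 (-0.0078 over all genes). In 10 of the 40 the signal was dim, DDX60, CXCL10 and BST2 among them. The median half-width of the 95% interval was 0.33 on the log2 scale for these genes and 0.24 over all genes, so smaller differences were not resolved with 3 arrays a group.

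**Figure D1:**
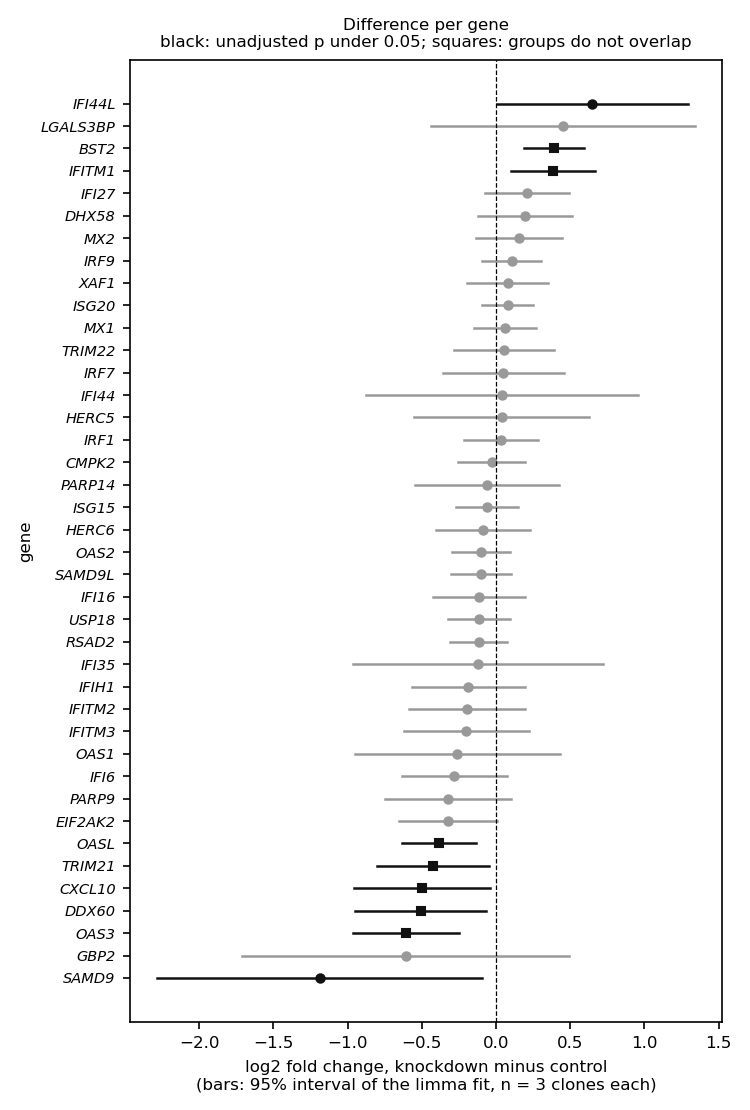
Log2 fold change (knockdown minus control, horizontal axis) of the 40 genes with its 95% interval from the limma fit, 3 clones per group. Black marks the 9 genes at an unadjusted p under 0.05, and squares mark the 7 whose groups do not overlap, from -0.61 for OAS3 to 0.39 for BST2. SAMD9 and GBP2, at the bottom, have the lowest values and wide intervals.

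Promoter sequence was looked at for what genes that were lower and genes that were higher share. RefSeq promoter windows of build GRCh38.p14, from 250 bases before to 50 after the annotated start, were matched for 31 of the 40 genes. The ISRE core was searched as GAAA, then NN for any 2 bases, then GAAA again, and the gamma-activated site as TTCNNNGAA, on both strands, and matches may overlap each other. An ISRE core was found in 20 of 31 windows (64.5%) against 2.96% of the windows of all measured genes, and a gamma-activated site in 9 (29.0%) against 6.93%. More than 1 ISRE core was found in 12 of the 31, against 0.322%. Of 9 genes lower by at least 0.3, GBP2 and OASL had no matched window and that of PARP9 held no ISRE core. The core of EIF2AK2 ran across the start, and those of TRIM21 lay after it. Stretches before the start are shown for the remaining 4 lower genes, with the ISRE core in capitals (5′ to 3′, in the direction of the gene). These 4 hold the same element as the genes that were higher.
OAS3: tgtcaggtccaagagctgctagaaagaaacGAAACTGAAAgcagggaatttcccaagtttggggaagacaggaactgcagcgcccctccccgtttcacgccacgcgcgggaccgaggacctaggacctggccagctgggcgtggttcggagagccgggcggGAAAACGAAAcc
DDX60: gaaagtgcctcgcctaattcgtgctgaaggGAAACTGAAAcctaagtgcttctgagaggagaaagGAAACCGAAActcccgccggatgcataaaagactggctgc
SAMD9: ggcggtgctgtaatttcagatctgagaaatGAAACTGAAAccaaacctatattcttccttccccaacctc
CXCL10: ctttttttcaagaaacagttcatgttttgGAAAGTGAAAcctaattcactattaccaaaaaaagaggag
These lie at OAS3 chr12:112938301-112938473 (plus strand), DDX60 chr4:168318766-168318870 (minus strand), SAMD9 chr7:93118076-93118145 (minus strand) and CXCL10 chr4:76023679-76023747 (minus strand). The same element stood before the start of the 4 genes with the highest differences on the other side, shown the same way.
BST2: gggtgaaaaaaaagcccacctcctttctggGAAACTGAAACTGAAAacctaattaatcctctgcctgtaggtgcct
IFITM1: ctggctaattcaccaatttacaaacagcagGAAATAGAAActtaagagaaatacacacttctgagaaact
IFI44L: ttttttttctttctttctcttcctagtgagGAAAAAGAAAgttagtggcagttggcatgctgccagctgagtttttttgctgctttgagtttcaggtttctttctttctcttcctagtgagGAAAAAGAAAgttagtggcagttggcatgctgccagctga
LGALS3BP: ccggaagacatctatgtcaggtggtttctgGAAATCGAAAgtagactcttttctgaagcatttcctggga
These are BST2 chr19:17405715-17405790 (minus strand), IFITM1 chr11:313970-314039 (plus strand), IFI44L chr1:78620254-78620414 (plus strand) and LGALS3BP chr17:78979942-78980011 (minus strand). In BST2 the cores overlap in a single run. The IFI44L promoter holds a direct repeat of 85 bases, 91 bases apart, so its ISRE core occurs in both copies.

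A match to the ISRE core did not separate genes by direction. Of the 20 genes with a match 11 had a lower mean in the knockdown clones (median log2 fold change -0.062), and of the 11 without 8 did (median -0.10). Since MBD2 binds methylated CpG, CpG dinucleotides were counted in the same windows. The 31 promoters held a median of 7 CpG, from 0 to 45, against 23 over measured genes. The ratio of observed to expected CpG was at least 0.6 in 10 of 31 (32.3%) against 69.1% of measured genes. In those 10 genes the median log2 fold change was -0.074 with 7 lower, and in the other 21 it was -0.10 with 12 lower. Across the 31 genes CpG count and log2 fold change had a Pearson r of -0.10, given as a description of genes measured on the same arrays. The 4 promoters of genes that were higher by at least 0.3 held few CpG, with 0 in IFI44L, 2 in BST2, 3 in IFITM1 and 4 in LGALS3BP. Those of genes lower by at least 0.3 held 3 in CXCL10, 4 in SAMD9, 6 in TRIM21 and 6 in PARP9. The others had 11 in DDX60, 20 in OAS3 and 30 in EIF2AK2. A low count was thus not particular to the genes that were higher. Methylation of these promoters was not analysed here.

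**Figure D2:**
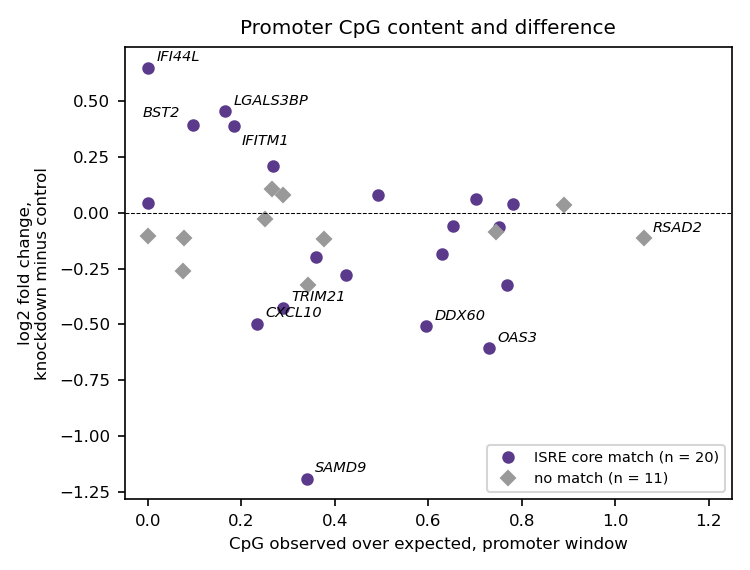
Ratio of observed to expected CpG in the promoter window (horizontal axis) against log2 fold change, knockdown minus control (vertical axis), for 31 genes. Circles are the 20 genes with an ISRE core match and diamonds the 11 without. The 4 genes higher by at least 0.3 lie at the CpG-poor end, as do the lower genes CXCL10, TRIM21, SAMD9 and PARP9. Of the 31 genes 21 lie under the 0.6 ratio, and lower genes lie on both sides of it.

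Among the RNA sensors, means of 2 of 3 were lower in the knockdown clones. DDX60, a helicase that assists RNA sensing, had log2 values of 4.42, 4.42 and 4.66 in control clones 1, 2 and 3 and 3.55, 4.30 and 4.13 in knockdown clones 1, 2 and 3. Its groups did not overlap, with knockdown clone 1 far below the others. The log2 fold change was -0.51 (SE 0.19, limma adjusted p = 0.468), and without control clone 3 it was -0.43 and without knockdown clone 1 -0.29. IFIH1, which codes for the sensor of long double-stranded RNA MDA5, overlapped between groups at -0.19 (95% interval -0.56 to 0.19). DHX58, whose product LGP2 regulates that sensor, stood at 5.07, 5.04 and 5.00 in the controls and at 5.50, 4.96 and 5.24 in the knockdown clones. Its knockdown clones thus lay on both sides of the controls. RIGI, the sensor of short RNA ends from the wider list of sensing genes, stood at 5.43, 5.55 and 6.06 in the controls and 4.86, 5.05 and 5.35 in the knockdown clones, without overlap (difference -0.59, adjusted p = 0.401).

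The transcription factors of the pathway showed small differences. IRF1, IRF7 and IRF9 had log2 fold changes of 0.035, 0.050 and 0.11, and that of IRF1 turned negative after renewed quantile normalization or cyclic loess. IRF9, the DNA-binding part of the complex that recognises the ISRE, ranged from 5.38 to 5.50 in the controls and from 5.44 to 5.63 in the knockdown clones. Its 95% interval, -0.091 to 0.30, leaves room for a modest difference on either side of 0. IRF7, which amplifies interferon production, stood at 6.55, 6.38 and 6.71 in the controls and at 6.99, 6.37 and 6.43 in the knockdown clones, with knockdown clone 1 above all others.

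The genes of ISG15 conjugation overlapped between groups in all 4 cases. ISG15, a ubiquitin-like protein attached to other proteins, stood at 6.97, 6.98 and 7.18 in the controls and 7.05, 6.93 and 6.96 in the knockdown clones, a difference of -0.063 (95% interval -0.27 to 0.15). USP18, which removes ISG15 and dampens receptor signalling, had -0.11 (-0.32 to 0.095). HERC5, the main ligase of ISG15 in human cells, was at 4.81, 5.34 and 4.81 in the controls and 5.59, 4.76 and 4.72 in the knockdown clones. HERC5 was therefore high in control clone 2 and knockdown clone 1, a pattern its neighbour HERC6 did not share. HERC6 stood at 5.83, 6.29 and 6.29 in the controls and 6.01, 6.15 and 5.9995 in the knockdown clones.

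The next group held 11 genes whose products bind, cut or make nucleic acids and nucleotides or restrict viruses in the cytosol. Means were lower in the knockdown clones for 10 of the 11 (51.3% of all genes were lower), with a median difference of -0.12. The group was drawn with earlier results known, and 4 of the 11 were dim. Genes of related function stood in other groups, where DHX58, MX1, MX2 and TRIM22 had higher means and IFIH1 and DDX60 lower ones. Among the 11, SAMD9, OAS3 and OASL were at an unadjusted p under 0.05. OAS3 belongs to the enzymes that make 2-5A, the messenger that activates RNase L. Its log2 values were 6.40, 6.30 and 6.76 in the controls and 6.02, 5.99 and 5.64 in the knockdown clones. The groups did not overlap, and the level was 1.52-fold lower (log2 fold change -0.61, SE 0.15, adjusted p = 0.315). OASL, an OAS-like protein that enhances RIG-I signalling, stood at 5.40, 5.24 and 5.62 in the controls and 5.06, 5.00 and 5.04 in the knockdown clones, where the 3 values were close together. The difference was -0.38 (SE 0.11, adjusted p = 0.347). OAS3 and OASL kept an unadjusted p under 0.05 under all 16 alternative fits, with differences of -0.70 to -0.47 and -0.47 to -0.29. Of the other genes at that level, BST2 kept it in 15 of 15 fits and IFITM1 in 14 of 16. DDX60 kept it in 13 of 15, SAMD9 in 11 of 15 and CXCL10 in 10 of 15. TRIM21 kept it in 10 of 16 and IFI44L in 6 of 15. Each gene had 1 feature, so fits with other choices of features or without the dimmest 30% of genes reused its 6 values. Those fits could hardly differ from the main one, and genes with 15 fits fell out under that filter.

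The other OAS genes did not follow OAS3. OAS1, which lies next to OAS3, had 7.16, 6.34 and 6.95 in the controls and 6.04, 6.53 and 7.11 in the knockdown clones, so each group spanned most of the range. OAS2, its neighbour on the other side, lay at 4.09, 4.04 and 4.10 in the controls and 4.09, 3.87 and 3.97 in the knockdown clones. Differences were -0.26 for OAS1 (95% interval -0.95 to 0.43) and -0.098 for OAS2 (-0.29 to 0.098), and OAS2 was dim. Whether OAS3 differed from its neighbours in its response was not tested.

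SAMD9, a cytosolic protein that restricts poxviruses, had the lowest fold change and the widest range of all 40 genes. It stood at 4.81, 5.47 and 6.57 in the controls and at 3.69, 4.82 and 4.78 in the knockdown clones. The controls alone covered 1.76 log2 units, and knockdown clones 2 and 3 lay at the level of control clone 1. The knockdown mean was 2.28-fold lower (log2 fold change -1.19, SE 0.47, adjusted p = 0.493), which made SAMD9 the only member at or past 2-fold, as 0.377% of all genes were. Without control clone 3 the difference was -0.71 and without knockdown clone 1 -0.82, and in neither case, nor without control clone 2, was the unadjusted p under 0.05. Its neighbour SAMD9L was dim and flat, at 3.33, 3.33 and 3.23 in the controls and 3.10, 3.17 and 3.31 in the knockdown clones.

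The rest of this group differed less. EIF2AK2, the kinase PKR that halts translation on double-stranded RNA, had 8.86, 8.61 and 9.17 in the controls and 8.47, 8.62 and 8.56 in the knockdown clones. The values met only between control clone 2 and knockdown clone 2, and the difference was -0.33 (95% interval -0.66 to 0.0053). RSAD2, which codes for viperin, and its neighbour CMPK2, a mitochondrial nucleotide kinase, had -0.12 and -0.029. RSAD2 was dim, at 4.04, 3.98 and 4.17 in the controls and 3.93, 3.92 and 4.00 in the knockdown clones. CMPK2 stood at 5.79, 5.70 and 5.70 in the controls and 5.87, 5.61 and 5.62 in the knockdown clones, so for both genes the groups overlapped. ISG20, an exonuclease that degrades RNA, had the narrowest range of the 40 genes (0.14 over the 6 arrays). IFI16, a sensor of DNA, was dim in every clone, from 2.58 to 3.08 in the controls and 2.71 to 2.81 in the knockdown clones.

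**Figure D3:**
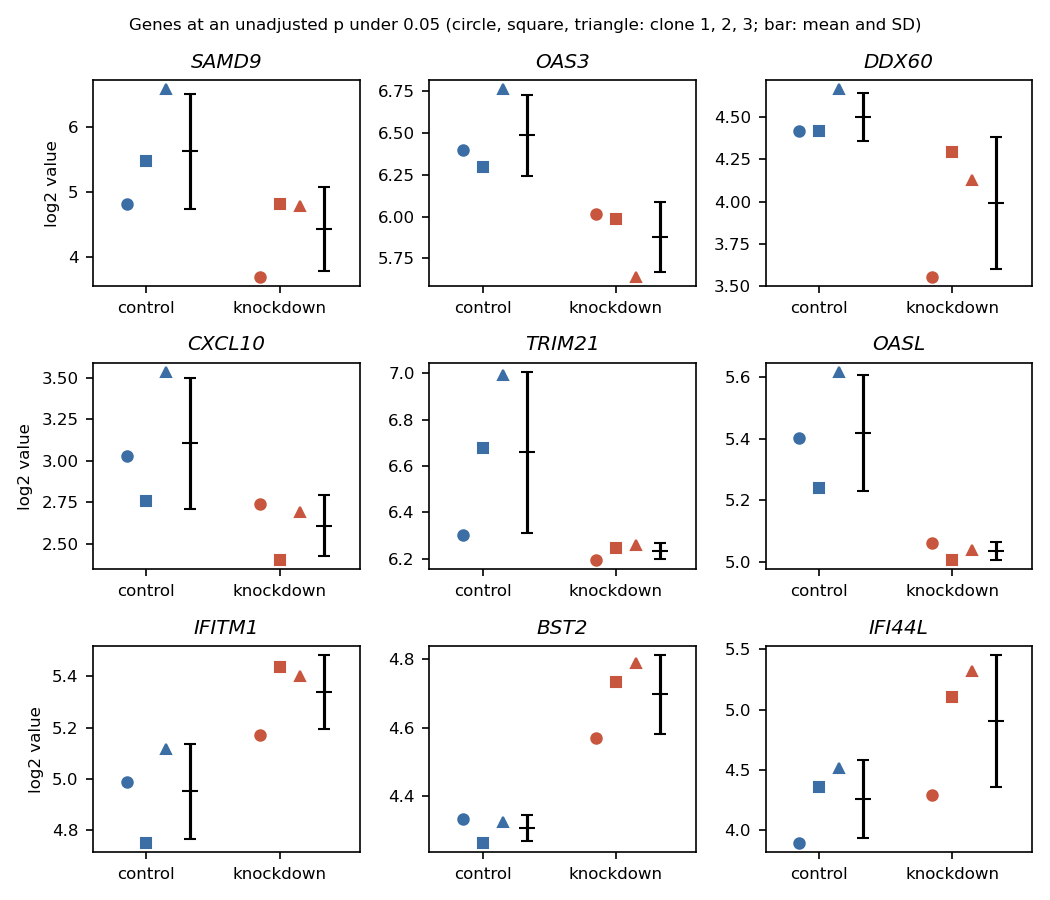
Log2 values (vertical axis) in each of the 6 clones for the 9 genes at an unadjusted p under 0.05, with circle, square and triangle for clones 1, 2 and 3 of a group and a bar for mean and SD. Control clone 3 is the highest of all 6 for the 6 genes that were lower, for example 6.57 in SAMD9 and 5.62 in OASL. The scale differs between panels and does not start at 0.

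The membrane restriction factors were split. BST2, or tetherin, holds budding virus particles at the cell surface. It stood at 4.33, 4.26 and 4.33 in the controls and at 4.57, 4.73 and 4.79 in the knockdown clones, so all knockdown clones were higher and the controls lay close together. The level was 1.31-fold higher (log2 fold change 0.39, SE 0.09), and its adjusted p of 0.272 was the smallest of the 40 genes in limma's test. BST2 passed with an adjusted p of 0.0297 once arrays were weighted by their scatter, a setting under which 325 of all 16704 genes passed. The weight was 0.252 for knockdown clone 1 and 3.43 for knockdown clone 2, so that fit leaned on knockdown clone 2. Over the alternatives the adjusted p of BST2 ranged from 0.0297 to 0.72. Its signal was dim in both groups.

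IFITM1, which blocks virus entry at the cell surface, was higher as well, at 4.99, 4.75 and 5.12 in the controls and 5.17, 5.44 and 5.40 in the knockdown clones. The difference was 0.39 (SE 0.12, adjusted p = 0.398). The gap between control clone 3 and knockdown clone 1 was small, and after renewed quantile normalization or cyclic loess the groups overlapped. Its neighbours IFITM2 and IFITM3, which act in endosomes, had differences of -0.20 each, with control values of 9.11, 9.16 and 9.54 and of 9.83, 9.65 and 10.32. Their knockdown values were 8.77, 9.28 and 9.18 for IFITM2 and 9.53, 9.91 and 9.76 for IFITM3. In both genes control clone 3 was the highest and knockdown clone 1 the lowest of all 6. IFITM2 and IFITM3 are near-identical in sequence, so which of them each feature measures is uncertain, and the difference between IFITM1 and its neighbours was not tested. The window of IFITM1 holds 2 ISRE cores, 1 before the start and 1 that runs across it and is not marked in its stretch. Both marked cores of IFITM3 stand before its start, in the stretch at chr11:320861-320942 (minus strand).
IFITM3: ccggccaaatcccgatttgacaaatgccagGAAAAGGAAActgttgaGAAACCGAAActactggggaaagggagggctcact

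Of the 3 large GTPases measured, GBP2 varied most. GBP2, which coats membranes around intracellular pathogens, stood at 5.65, 5.35 and 6.67 in the controls and 4.36, 5.41 and 6.07 in the knockdown clones. Its range of 2.31 log2 units over the clones exceeded the group difference of -0.61 (95% interval -1.71 to 0.50), and without knockdown clone 1 the difference was -0.15. MX1 and MX2, dynamin-like proteins that trap viral nucleoproteins or capsids, are neighbours. MX1 was at 5.04, 5.08 and 5.06 in the controls and 5.27, 5.07 and 5.02 in the knockdown clones. MX2 was dim, at 3.90, 3.53 and 3.72 in the controls and 3.96, 3.68 and 3.97 in the knockdown clones. Neither differed beyond its spread, with 0.061 for MX1 (95% interval -0.15 to 0.27) and 0.16 for MX2 (-0.14 to 0.45).

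The IFI genes and XAF1 were mixed, with 4 of 6 means higher in the knockdown clones. Of these, IFI44 and XAF1 changed sign under some alternative fits. Their ranges were -0.29 to 0.44 and -0.033 to 0.15 when an array was left out. IFI44L, a gene of limited known function, had 3.90, 4.36 and 4.52 in the controls and 4.29, 5.11 and 5.32 in the knockdown clones. Knockdown clones 2 and 3 were above all controls and clone 1 lay among them. The log2 fold change was 0.65 (SE 0.28, adjusted p = 0.530) and 0.96 without knockdown clone 1, where the adjusted p was 0.0815 (0.0555 to 0.811 over the alternatives). Its neighbour IFI44 also stood higher in knockdown clones 2 and 3 (5.27 and 5.81) than in clone 1 (4.34), but the controls, at 4.64, 4.97 and 5.68, covered most of that range. IFI35 ranged widely too, with 5.18, 6.04 and 6.45 in the controls and 6.34, 5.67 and 5.29 in the knockdown clones. Here knockdown clone 1 was the highest of its group, unlike in IFI44. IFI27, a mitochondrial protein strongly induced by type I interferon, had 5.28, 5.32 and 4.96 in the controls and 5.28, 5.52 and 5.38 in the knockdown clones (0.21, 95% interval -0.071 to 0.49). IFI6, which protects cells from apoptosis, stood at 9.19, 9.16 and 9.66 in the controls and 8.88, 9.10 and 9.18 in the knockdown clones. XAF1, a pro-apoptotic antagonist of XIAP, was dim and differed by 0.080.

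TRIM21, an antibody receptor in the cytosol, stood at 6.30, 6.68 and 6.99 in the controls and at 6.19, 6.25 and 6.26 in the knockdown clones. The knockdown clones had an SD of 0.035 and lay just below control clone 1, while the controls had an SD of 0.35. The log2 fold change was -0.42 (SE 0.16, adjusted p = 0.480), and without control clone 3 it was -0.26. PARP9 and PARP14, ADP-ribosyltransferases that enhance interferon signalling, had 7.52, 7.61 and 8.01 and 6.17, 6.05 and 6.61 in the controls. Knockdown values were 7.06, 7.46 and 7.65 for PARP9 and 5.80, 6.45 and 6.38 for PARP14. Both genes were highest in control clone 3 and lowest in knockdown clone 1, with differences of -0.32 and -0.062. TRIM22, which inhibits viral transcription, was dim and differed by 0.054.

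The 2 genes for secreted proteins went opposite ways. CXCL10, a chemokine that attracts T cells, was at 3.03, 2.75 and 3.53 in the controls and 2.74, 2.40 and 2.69 in the knockdown clones. The groups were separated by only a small step, between control clone 2 and knockdown clone 1, and all 6 values were dim (log2 fold change -0.50, SE 0.20, adjusted p = 0.494, and -0.28 without control clone 3). LGALS3BP, a secreted glycoprotein that binds galectins, stood at 10.05, 9.12 and 9.60 in the controls and 9.20, 10.65 and 10.28 in the knockdown clones. Knockdown clones 2 and 3 were above all controls, and clone 1 was near the lowest control. The difference was 0.45 (95% interval -0.43 to 1.34), 0.88 without knockdown clone 1 and 0.15 without knockdown clone 2.

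**Figure D4:**
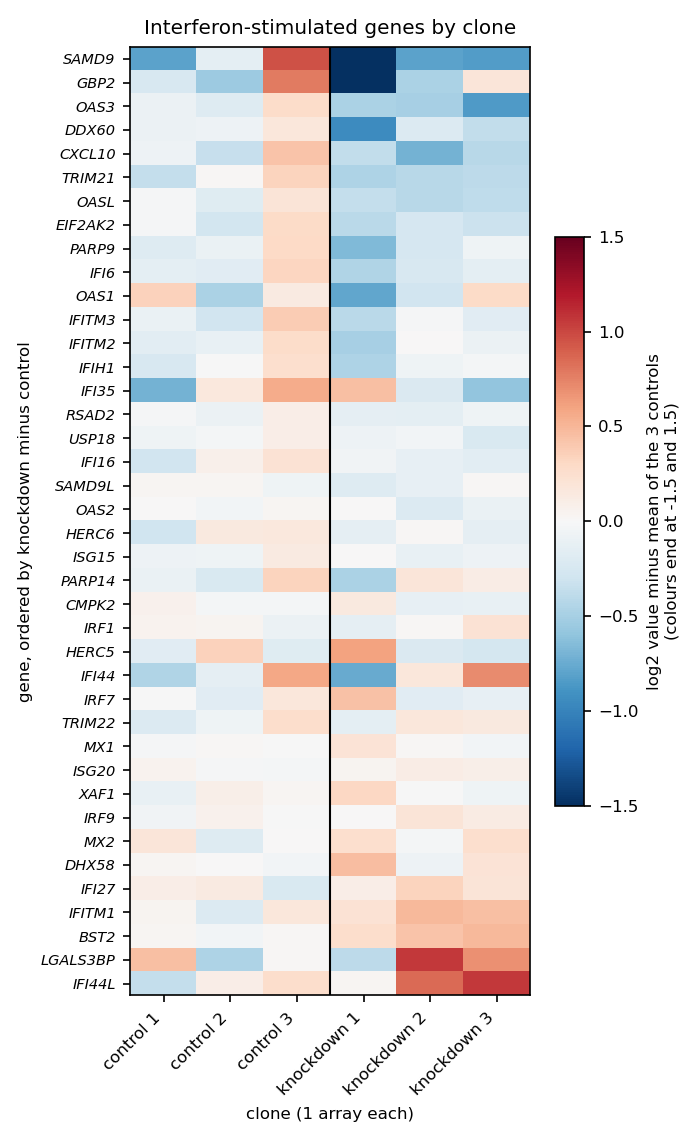
Log2 value minus the mean of the 3 controls (colour) for the 40 genes (rows, ordered by knockdown minus control) in the 6 clones (columns). Control clone 3 is red in most rows of the upper part and knockdown clone 1 blue, with SAMD9 at 6.57 and 3.69 as the extreme, while HERC5, IFI35, IRF7 and DHX58 are red in knockdown clone 1.

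Single clones carried much of the variation. The SD over the control clones had a median of 0.24 for these genes against 0.10 over all genes, and over the knockdown clones of 0.18 against 0.13. The range over the controls was at least 0.5 in 14 of the 40 genes (35.0%) and in 7.44% of all genes. Control clone 3 was the highest of all 6 clones in 22 of the 40 genes (55.0%), as in 14.6% of all genes, and it lay above the control mean in 31. Knockdown clone 1 was the lowest of all 6 in 15 (37.5%), as in 19.9% of all genes. Both held together in 11 genes (27.5%, against 4.78% of all genes), which were SAMD9, GBP2, DDX60, TRIM21, EIF2AK2, PARP9, PARP14, IFI6, IFIH1, IFITM2 and IFITM3. The median deviation of the 40 genes from the control mean was 0.16 in control clone 3, -0.074 and -0.063 in control clones 1 and 2, and -0.13, -0.096 and -0.067 in knockdown clones 1, 2 and 3. Knockdown clone 1 also had the narrower array named above, whose part in its values was not tested. In 13 of the 40 genes (32.5%, against 51.2% of all genes) it was the highest knockdown clone, HERC5, IFI35, IRF7 and DHX58 among them, so its lower values were not shared by the whole list. MBD2 stood at 8.73, 9.24 and 9.20 in the controls and at 7.68, 7.84 and 7.81 in knockdown clones 1, 2 and 3. The part of MBD2 level in the differences between clones was not tested.

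**Figure D5:**
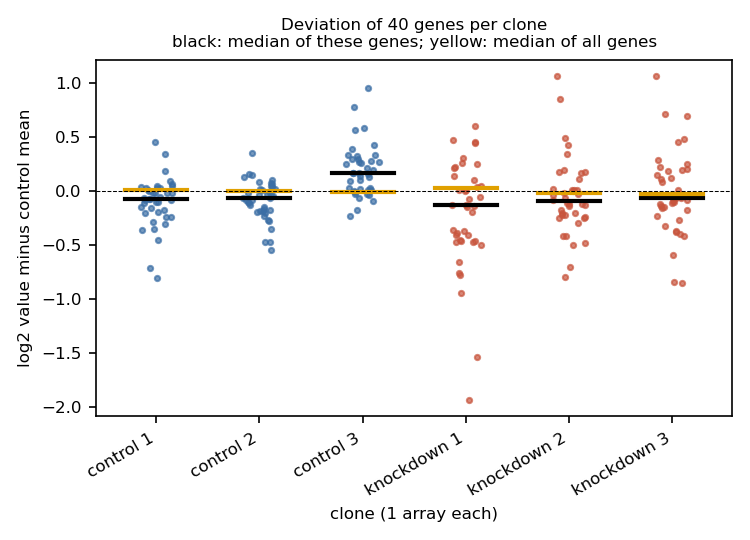
Deviation of each of the 40 genes from its control mean (vertical axis, log2) in each clone, with the median of these genes in black and that of all genes in yellow. Control clone 3 has a median of 0.16, and the other 5 clones lie between -0.13 and -0.063.

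The other genes of the pathway were described in the same way. Of 97 measured genes in 6 lists of interferons, receptors, kinases and inhibitors, sensors, further interferon-stimulated genes and IFIT genes, 0 had an adjusted p under 0.05 in limma's test. At an unadjusted p under 0.05 there were 7, 6 lower and 1 higher, while 9.39% of all genes were at that level (5.45% lower, 3.93% higher). Without the IFIT genes 46 of 92 were lower and the median was -0.0026. The interferon genes were mostly dim (11 of 14), with IFNL2 at -0.18 and IFNA5 at 0.16. Of 6 receptor genes, IFNGR2, a chain of the interferon gamma receptor, had 0.33 with its knockdown values above all controls, and IFNAR1, of the type I receptor, had 0.15. In the list of kinases, transducers and inhibitors, 6 of 12 were lower, with -0.21 for JAK2 and 0.33 for PIAS1, an inhibitor of the pathway. JAK1, named here because its loss of function in LNCaP is known, stood at 5.64, 5.57 and 5.73 in the controls and 5.54, 5.87 and 5.63 in the knockdown clones, and the array cannot tell working from defective transcripts.

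Sensing genes had 12 of 19 members lower, RIGI and NFKB1 with the smallest p. NFKB1, a subunit of the transcription factor NF-kappaB, was at 8.03, 7.82 and 8.07 in the controls and 7.56, 7.32 and 7.44 in the knockdown clones. Its groups were well apart, with a difference of -0.53 (SE 0.10, adjusted p = 0.229). Of 41 further interferon-stimulated genes 22 were lower, with a median of -0.036. Among these DTX3L, a ubiquitin ligase that works together with PARP9, had -0.31, close to the -0.32 of PARP9. PLSCR1, a phospholipid scramblase, had -0.27, but it was dim and its groups overlapped. The IFIT genes, which code for proteins that bind viral RNA ends, had 5 of 5 means lower with a median of -0.43. Of all genes 51.3% were lower, and 3 of the 5 IFIT genes were dim. IFIT5 stood at 5.14, 5.17 and 5.23 in the controls and 4.56, 4.91 and 4.82 in the knockdown clones. IFIT3, which was dim, had -0.58. IFIT1 was highest in control clone 3 (5.84) and lowest in knockdown clone 1 (4.08).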

How the data were processed

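Biotin-labelled cytoplasmic RNA of 6 LNCaP clones was measured on 1 Affymetrix Gene ST array each, per the labels. The deposited table holds log2 values per feature, made by the authors with RMA. The submitters' processing notes name RMA, oligo and limma, whose versions are not given in the sources used. RMA brings arrays towards a common distribution, so a shift of all genes in 1 clone may not show. The deposited values still differed in spread, with a lower quartile of 4.81 for knockdown clone 1 against 4.68 to 4.72 on the others. The log2 scale was taken from RMA and the range of the values.

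Of 19712 features 17334 are annotated to 1 gene symbol, 1521 to several and 857 to none listed here. Each of 16704 genes was represented by its brightest feature on average. Groups were compared with limma 3.58.1 (lmFit, then eBayes; R 4.3.3), without covariates or a filter on dim genes, adjusted by Benjamini-Hochberg over all genes. The threshold was an adjusted p under 0.05. The fit was tested on simulated data with independent noise and planted changes of at least 2-fold. That simulation held no differences between clones of a group, so it does not bear on them or on smaller changes. Replicate numbers did not pair the clones: deviations of same-numbered clones from their group means correlated at -0.025, -0.19 and 0.17.

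The members, roles, pathway lists and tests were chosen with earlier results of these data known. The rule gives values in every array for members at an unadjusted p under 0.05, without overlap, with the 6 largest differences in each direction, with the 8 widest ranges, or in sets of genome neighbours, and the 2 smallest p of each pathway list. JAK1 and other members with values in every array fall outside it. Neighbours were taken from RefSeq, and promoter windows were read in Python 3.11.15. Alternatives were 3 normalizations, a filter on the dimmest 30% of genes, trend and robust eBayes, array weights, the replicate block, other choices of features, leaving out each array, averaging knockdown clones 2 and 3, a threshold of 0.1 and brighter members only.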

Additional observations from a re-analysis of the deposited data

How the results depend on the processing

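Of the 40 genes 29 kept the sign of their difference under each of the 16 alternative fits that included them, and BST2 with array weights was the only gene and setting past the threshold. The number of all genes past the threshold, 0, became 1 after quantile normalization, 1 after cyclic loess, 325 with array weights and 2 at an adjusted p under 0.1, and was 0 to 70 when an array was left out. MBD2 passed with array weights (-1.27, adjusted p = 0.0138) and also without control clone 1 or knockdown clone 1, over a range of -1.44 to -1.19 when an array was left out. Members at an unadjusted p under 0.05 numbered 4 without the dimmest 30% of genes, where 27 of the 40 were left (11.1% of all genes), and 5 to 9 when an array was left out (6.51% to 16% of all genes). Members whose groups do not overlap numbered 4 without the dim genes (17.6% of all genes), 13 with knockdown clones 2 and 3, the most alike pair, averaged (22.1%), and 8 to 16 when an array was left out, where smaller groups overlap less often by construction (22.9% to 35.1% of all genes). With the replicate block 11 members were at an unadjusted p under 0.05 (9.43% of all genes), 0 genes passed, and MBD2 had an adjusted p of 0.193. The numbers do not pair the clones, and 2 of 6 arrays correlated best with their own number.

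Signs turned for 11 genes with small differences. After quantile normalization IFI44 had -0.0004 and IRF1 -0.0060, and after cyclic loess HERC5 had -0.0018 and IRF1 -0.0036. With array weights HERC5 had -0.24, IRF7 -0.10, PARP14 0.16 and XAF1 -0.014. With knockdown clones 2 and 3 averaged CMPK2 had 0.013, IFI35 0.024, IFI44 -0.16 and IRF1 -0.0067. Leaving out an array gave ranges of -0.11 to 0.016 for CMPK2, -0.24 to 0.21 for HERC5, -0.48 to 0.16 for IFI35, -0.29 to 0.44 for IFI44, -0.057 to 0.12 for IRF1, -0.15 to 0.16 for IRF7, -0.099 to 0.0057 for ISG15, -0.014 to 0.11 for MX1, -0.18 to 0.14 for PARP14, -0.048 to 0.19 for TRIM22 and -0.033 to 0.15 for XAF1. The cause was not tested. Dim signals limit what can be said of 10 of the 40 genes.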

Other observations

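A further 2 features are annotated to a member together with other genes, so they cannot be assigned to any of them, and they are given here as values chosen after they were seen. The feature shared by USP18 and the pseudogene USP41P stood at 7.36, 7.43 and 7.48 in the controls and 6.97, 7.26 and 7.06 in the knockdown clones, without overlap (log2 fold change -0.33, limma adjusted p = 0.374 over all features). The feature of USP18 alone differed by -0.11. The feature shared by GBP1, GBP3 and GBP1P1 stood at 5.02, 4.63 and 6.73 in the controls and 4.05, 4.91 and 5.73 in the knockdown clones. It was highest in control clone 3 and lowest in knockdown clone 1, as GBP2 was.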
